A study of Mus musculus with 50 samples.

Results

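Tail-to-tail overlapping genes lie on opposite strands, run towards each other and cross at their 3′ ends, where exons of one lie over exons of the other. Such genes were taken from the RNA count tables of a mouse embryonic stem (ES) cell experiment by position and level, on chromosomes 1 to 5, 7 to 10 and 12 to 19. A gene was kept when it held at least 60 counts summed over 6 libraries and shared at least 50 bases of exon with a gene on the other strand. That gene is called its partner, and where several qualified the largest exon overlap decided. Neither gene's span could contain the other, and the 3′ ends of both had to lie in the overlap. The rule kept 895 of the 37310 genes in the tables, and 895 of the 3586 genes that passed the count threshold on these 17 chromosomes. The genes were chosen by position and by their summed count over all 6 libraries, so their levels are given as a description, while no contrast between groups entered the rule. Just inside the count threshold were Taf3 and Fermt3 with 60 counts and Col9a3 with 61, and just outside it were Cdan1 and Naa25 with 59 and Agpat2 with 58. Just inside the overlap threshold were Srpr, Fam118b and Atp6v1c2 with 50 shared bases, and just outside it were Fer1l5, Gm12353 and Ptprcap with 46.

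The 3′ end of most messenger RNAs is made by cleavage and polyadenylation a short way after a signal that most often reads AATAAA in DNA letters, and ATTAAA is its most common variant. Where convergent genes end past one another, both strands of the shared stretch are copied into RNA, and the RNAs of the pair are complementary there. Where RNA sequencing keeps the strand and counting uses it, strand alone decides to which gene a fragment of the shared stretch is counted.

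Wild type J1 cells, a mouse ES cell line labelled with the strain 129S4/SvJae, were compared with the lines KO1 and KO2 of the genotype NSD1-/-. All were untreated and were grown with serum and leukaemia inhibitory factor on gelatin. NSD1 is a histone methyltransferase that places dimethylation on lysine 36 of histone H3, and the comparison asks how RNA changes in its absence. Each group had 2 RNA libraries, and 44 further samples, all chromatin assays, were left aside. The labels do not say how the lines were made or whether each is a clone. Separate cultures are not named for the libraries of a group. The p-values below therefore rest on the spread among these libraries alone, and that spread may be technical.

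Total counts were 1150089 to 1285487 per library, of which AY036118, a chromosome 17 gene that is not a tail-to-tail gene, took 32.3% to 37.2%. Genes whose messenger RNA abounds in any cell held few counts unless another gene lay opposite (Actb had 753, against a tail-to-tail median of 560). A count was therefore taken to come from the other strand, in a tail-to-tail overlap from RNA of the partner. That reading was not tested gene by gene. Of the 3586 genes above the count threshold, 1665 had no partner, and those tested had a median of 115 summed counts. At tail-to-tail genes with few counts, RNA of the partner cannot be told from counts of the kind seen without a partner. Nsd1, with no exon opposite, held 21 and 25 counts (wild type), 55 and 38 (KO1), 27 and 21 (KO2). Because counts were read as the other strand, these do not check the labels. For the same reason the 106 counts at the pluripotency gene Pou5f1 do not check the cell type. No marker of pluripotent cells, and no imprinted gene from the list used, was a tail-to-tail gene or a partner. Of the markers of other cell types, Tagln and Pax6 were tail-to-tail genes and neither was called in any comparison. In the whole tables, counted genes opposite pluripotency markers (opposite Sall4, Lin28a, Tbx3, Stat3 and Tdh) summed to 5398 to 5424 CPM (counts relative to the effective size of the library) in wild type, 3141 to 3205 in KO1 and 6086 to 6116 in KO2. The 6 tested genes opposite fibroblast markers summed to 1527 to 1594, 1399 to 1452 and 1304 to 1342 CPM, and 4 of them were lower in the lines together, as were 2 of the 5 opposite pluripotency markers and the 1 opposite a trophoblast marker. Those opposite neuroectoderm markers summed to 181 to 187, 316 to 336 and 116 to 128 CPM, and the gene opposite the trophoblast marker to 34.9 to 44.6, 5.03 to 8.89 and 42.9 to 52.6 CPM. No tested gene lay opposite an endoderm or mesoderm marker, and the part of these levels in the results was not tested.

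The 3′ ends themselves are shown for pairs on which the results turn. Each line gives the last 30 bases of a gene before its annotated 3′ end in the mm9 genome, 5′ to 3′ on the gene's own strand, with AATAAA or ATTAAA in capitals where it occurs. The first 6 are the genes of 3 pairs in which the counted gene (Chpf2, Fam151a, Rprd1b) changed in the NSD1-/- lines. Next come a pair with very high counts (Map3k12 and Pcbp2), a pair that differed between the lines (0610009E02Rik and Notch1), and 4 partners of genes with very high counts.
Chpf2 (chr5:24100184-24100213, plus strand): ctcAATAAAtaccaactactctttttcctt
Smarcd3 (chr5:24096636-24096665, minus strand): cacagttcaatacactttcaatcccgcgct
Fam151a (chr4:106420868-106420897, plus strand): aaggtgAATAAAtgtctctgctttgttcca
Acot11 (chr4:106417160-106417189, minus strand): aaccgtgcctggggtacactaaccactcaa
Rprd1b (chr2:157958004-157958033, plus strand): aaagcttgaatgaatagccctgagaacctc
Tgm2 (chr2:157942138-157942167, minus strand): tgaAATAAAggtctatttttcacattcaaa
Map3k12 (chr15:102328080-102328109, minus strand): cttcaATTAAAatatgttttctttaacgtc
Pcbp2 (chr15:102330461-102330490, plus strand): atatattatttatataaatatttctctatg
0610009E02Rik (chr2:26314881-26314910, plus strand): aagtacataAATAAAtactaaaaaaaaaaa
Notch1 (chr2:26313423-26313452, minus strand): gatactgatggttgtccacattttgctaaa
Apex1 (chr14:51546785-51546814, plus strand): atccaagagaAATAAAaggccctactttca
Ptbp1 (chr10:79327487-79327516, plus strand): tgtactcacATTAAAtcttaaaaaaaattc
Fen1 (chr19:10273622-10273651, minus strand): aaaacAATAAAattataaaagtgaccagaa
Vcp (chr4:42992835-42992864, minus strand): aaaggacAATAAAtgttgggtcaaaatgga
Chpf2, Fam151a, Tgm2, Map3k12 and 0610009E02Rik carry a signal in this window, while Smarcd3, Acot11, Rprd1b, Pcbp2 and Notch1, each the other gene of its pair, do not. The 4 partners shown last all carry one. Of partners of genes with very high counts that are not shown, Tcp1 carries one and Hsp90b1 does not. Of the 821 protein-coding partners, 49.7% held AATAAA, 13.8% held ATTAAA and 62.0% held at least 1 of them. Among the 726 protein-coding tail-to-tail genes 60.3% held at least 1, against 58.0% of all 22380 protein-coding genes of the tables and 61.3% of 445 protein-coding partners of head-to-head genes. For long non-coding and processed transcripts the shares were 50.0% of 168 tail-to-tail genes and 41.3% of all 3845. Only the transcribed strand was searched, the motifs may overlap each other, and a window without either says nothing about where the RNA ends in these cells.

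The 895 genes faced 890 partners, and 279 pairs had both genes among the 895. Protein-coding genes made up 726, lincRNAs 107 and processed transcripts 61, and 1 was a pseudogene. Both genes were protein-coding in 658 cases, a non-coding gene faced a coding partner in 168, and a coding gene faced a non-coding partner in 68. By strand, 455 were on plus and 440 on minus. Chromosome 2 held 93 of them, the most, and chromosome 18 held 15, the fewest.

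The shared exon was mostly short. It had a median of 472 bases, with quartiles of 212 and 892 and a largest value of 5542 at Pax6, the eye and neural transcription factor opposite the Elongator subunit gene Elp4. It made up a median of 14.3% of the counted gene's exon length. Of the 658 overlaps between coding genes, 261 touched the coding sequence of neither gene, 132 only that of the counted gene, 157 only that of the partner and 108 that of both. The partner's annotated 3′ end fell in an exon of the counted gene in 482 cases and in an intron in 413.

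**Figure D1:**
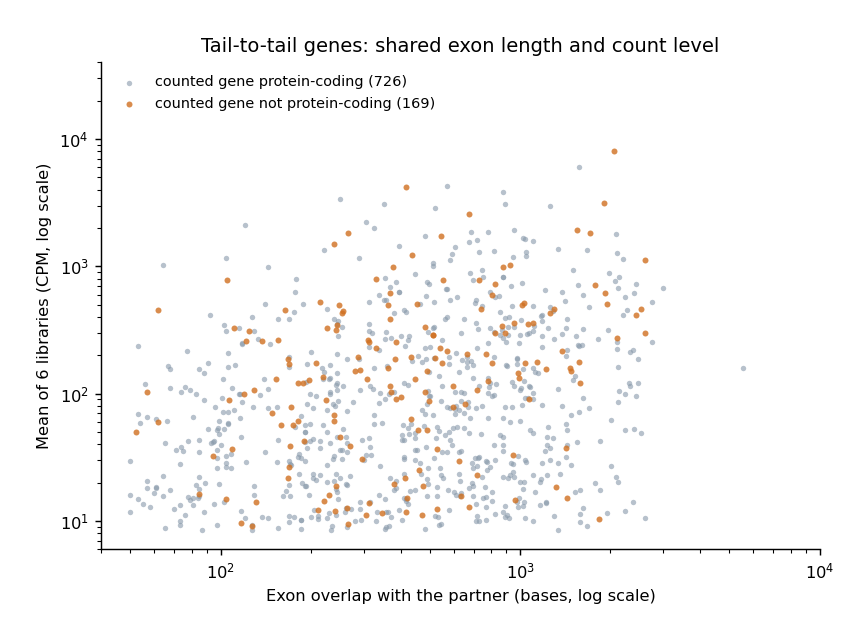
Each of the 895 points is a tail-to-tail gene, with the exon overlap with its partner in bases on the horizontal axis and the mean of the 6 libraries in CPM on the vertical axis, both logarithmic. Non-coding genes (169, orange) are spread through the same range as coding ones (726, grey), and the level rises weakly with the overlap.

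Genes that shared more exon held more counts. The median summed count was 334 for the 212 genes with overlaps of 50 to under 200 bases, 522.5 for 264 with 200 to under 500, 716 for 235 with 500 to under 1000, and 1085 for 184 with 1000 or more. Per kilobase of shared exon the order turned round, with medians of 432, 213, 136 and 105 CPM per kilobase. That value is divided by the overlap that also sorts the genes, and the rule asks for the same minimum count at any overlap. It falls wherever counts rise less than in proportion to the overlap, so the reversed order was largely set by the division. Nothing is concluded from that order. Across the 895 genes the overlap and the summed count had a Spearman correlation of 0.24, while the whole exon length and the summed count had one of 0.017. These are descriptions across genes of the same 6 libraries, and genes are not independent replicates.

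Tail-to-tail genes took 22.4% to 23.8% of all counts in a library, or 34.8% to 36.3% without AY036118. The 12 with the most counts held 19.8% to 20.6% of the tail-to-tail counts. Among these 12, many partners belong to housekeeping machinery. Gm9793, a lincRNA opposite the stress granule protein gene G3bp2, was highest, with counts of 9821 and 9342 (wild type), 9105 and 9141 (KO1), 8985 and 10454 (KO2). Its partner G3bp2 held 52 counts over all 6 libraries.

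Map3k12, a kinase gene opposite the RNA-binding protein gene Pcbp2, held 42899 counts against 511 for Pcbp2. Acat3, a thiolase gene opposite the chaperonin subunit gene Tcp1, held 30467 against 4678. The lincRNA 1810014B01Rik, opposite Hsp90b1, a chaperone of the endoplasmic reticulum, held 29785 against 106. In each of these pairs the gene known for abundant messenger RNA was the one with fewer counts. The pairs were named for the high count of the other gene, so this order was largely set by the choice. Messenger RNA levels of the partners were not measured separately. Tmem55b held 26964 counts opposite the DNA repair nuclease gene Apex1, BC005764 held 24026 opposite the splicing regulator gene Ptbp1, and Gm10143 held 22280 opposite the flap nuclease gene Fen1. Rpgrip1 held 21988 opposite Supt16h, a subunit of the histone chaperone FACT, and 1700022I11Rik held 21673 opposite the segregase gene Vcp, which itself had 42. Cdc23 held 21103 opposite the mitotic kinesin gene Kif20a, Snx22 held 20196 opposite the cyclophilin gene Ppib, and Gm15964 held 18359 opposite the purine synthesis gene Gart.

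**Figure D2:**
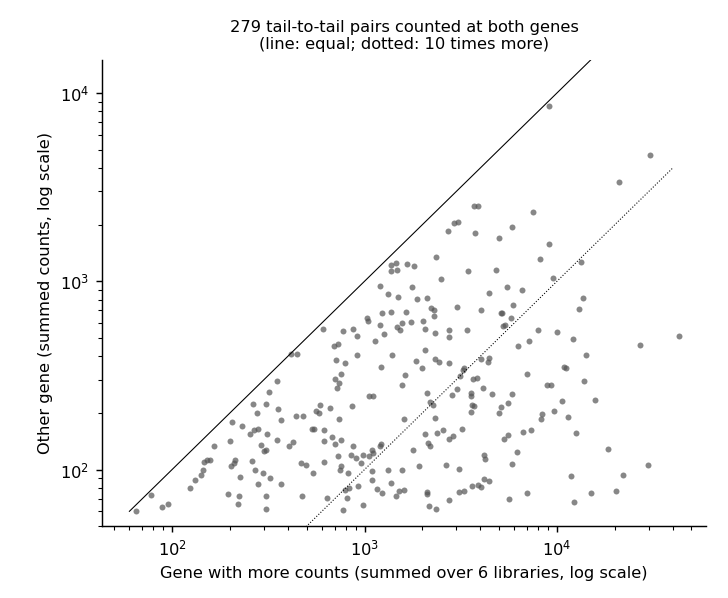
The 279 pairs with both genes among the tail-to-tail genes, with the summed count of the gene with more counts on the horizontal axis and of the other gene on the vertical axis, both logarithmic. Points lie below the line of equality by construction, with a median ratio of 5.80 and a dotted line at a ratio of 10.

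Counts in a pair were unequal. In the 279 pairs the larger summed count was a median of 5.80 times the smaller, the ratio ran from 1.02 to 281, and it was at least 10 in 101 pairs and under 2 in 56. For 303 genes the partner had under 60 counts, and for 94 it had under 1% of the gene's own count. The 31 genes with at least 10000 counts had partners at a median of 1.19% of their count.

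Genes were called at an adjusted p under 0.05 (edgeR's quasi-likelihood test, Benjamini-Hochberg over all tested genes), and between the lines together and wild type 28 of the 895 were higher (2.72% of all 5034 tested genes were) and 45 were lower (3.89% of all). The share of higher genes among those called was 38.4%, near the 41.1% of all tested genes, and with scaling on the 17 chromosomes without AY036118 the counts were 32 higher and 38 lower. The median summed count was 804 for the genes that rose and 2554 for those that fell. All 895 passed the filter on low counts, and their median summed count was 560, against 145 for all tested genes. The shares given for all tested genes, here and below, thus come from genes with fewer counts. The median log2 fold change was -0.04 over the 895 and -0.01 over all tested genes, 214 of the 895 had an unadjusted p under 0.05, and the median size of the called changes was 0.44. The ± beside each log2 fold change is the fit's standard error. In bulk RNA, fewer cells of a type and less RNA per cell cannot be told apart.

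Chpf2 (chromosome 5, 24092559 to 24100213, plus strand), a chondroitin polymerizing factor gene opposite Smarcd3, which encodes a subunit of the SWI/SNF chromatin remodeller, fell in the lines together. Its counts were 279 and 315 (wild type), 186 and 230 (KO1), 141 and 166 (KO2), or 256 ± 16.7, 172 ± 30 and 131 ± 7.92 CPM (mean ± SD, n = 2 libraries a group, here and below). All 4 knockout libraries lay below both wild type libraries, and the log2 fold change was -0.77 ± 0.10 (adjusted p = 3.44e-06). Rfc5 (chromosome 5, 117828112 to 117839056, minus strand), a clamp loader subunit gene opposite the ubiquitin ligase adaptor gene Wsb2, had counts of 338 and 322 (wild type), 288 and 244 (KO1), 211 and 230 (KO2). The groups did not overlap, and the change was -0.49 ± 0.09 (adjusted p = 0.00031). At Clca6 (chromosome 3, 144615444 to 144638009, minus strand), opposite the lincRNA Gm16233, counts were 24 and 24 (wild type), 14 and 12 (KO1), 5 and 4 (KO2), a change of -1.67 ± 0.33 (adjusted p = 0.00139). Gm17168, opposite the mitochondrial carrier gene Slc25a23, had 32.8 ± 0.666, 11.1 ± 1.46 and 21 ± 0.55 CPM, a change of -1.10 ± 0.24. Again no knockout library reached wild type at either gene.

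Abundant genes changed less on the log2 scale but with small errors. Tmem55b, opposite Apex1, had counts of 4816 and 5063 (wild type), 4399 and 4264 (KO1), 3965 and 4457 (KO2), a change of -0.25 ± 0.04 (adjusted p = 5.97e-05). BC005764, opposite Ptbp1, changed by -0.23 ± 0.04 (adjusted p = 0.000215), with 3759 ± 29.5, 3159 ± 32.4 and 3268 ± 24.9 CPM. Map3k12, opposite Pcbp2, had 6633 ± 142, 5772 ± 7.86 and 5778 ± 63 CPM, a change of -0.20 ± 0.04 (adjusted p = 0.000429). In these 3 genes both lines stood at nearly the same level, below wild type. Tbc1d8, opposite the ribosomal protein gene Rpl31, fell too (-0.31 ± 0.07, adjusted p = 0.00224).

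Several other genes that fell lost their call when 1 library was left out. Without wild type replicate 1 the adjusted p was 0.236 for 2610028H24Rik (log2 fold change -0.77), opposite the ribonuclease gene Ybey, and 0.185 for Abi1 (-0.75), opposite the coenzyme Q synthesis gene Pdss1. Without wild type replicate 2 it was 0.307 for Ccdc85b (-1.01), opposite the AP-1 subunit gene Fosl1, 0.132 for Oxa1l (-0.66), opposite the amino acid transporter gene Slc7a7, and 0.149 for Gm16682 (-0.25), opposite the remodeller gene Chd8. Traf3ip3 (-0.79) lost its call without wild type replicate 2 or KO1 replicate 1, with adjusted p of 0.106 and 0.052. Pptc7 (-0.83, opposite Rad9b) and Gm16253 (-0.79, opposite the polymerase III subunit gene Polr3gl) each kept the call in 1 of 6 such fits, with adjusted p of up to 0.465 without wild type replicate 2 and 0.299 without wild type replicate 1.

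**Figure D3:**
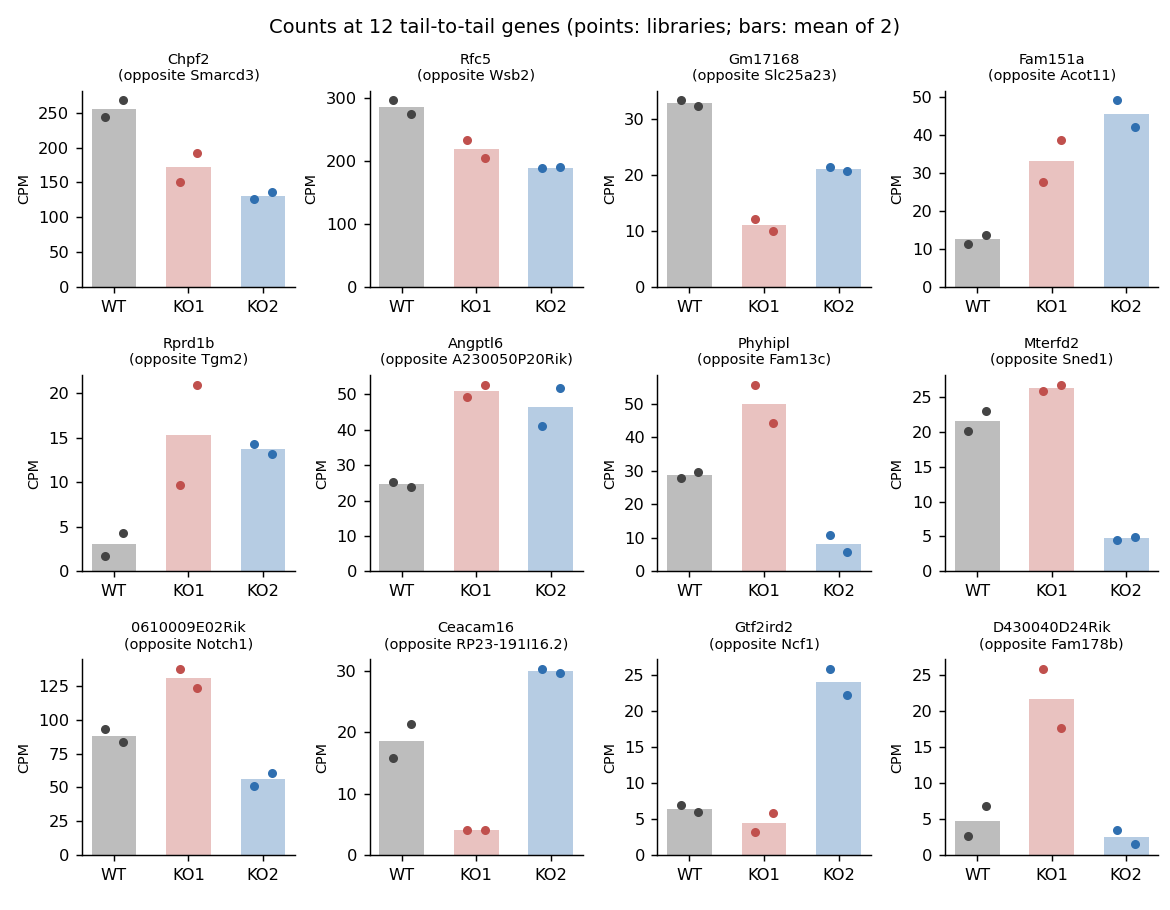
CPM by library at 12 tail-to-tail genes, with a point for each library and a bar for the mean of 2, in wild type (WT, grey), KO1 (red) and KO2 (blue). Chpf2, Rfc5 and Gm17168 lie lower and Fam151a, Rprd1b and Angptl6 higher in all 4 knockout libraries, and the last 6 panels are genes that differ between KO1 and KO2.

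Among the genes that rose was Fam151a (chromosome 4, 106406494 to 106420897, plus strand), opposite the acyl-CoA thioesterase gene Acot11. Its counts were 13 and 16 (wild type), 34 and 46 (KO1), 55 and 51 (KO2), a change of 1.62 ± 0.26 (adjusted p = 0.000111). Both lines lay above wild type with no overlap. Angptl6 (chromosome 9, 20678253 to 20684154, minus strand), which encodes an angiopoietin-like secreted protein, had counts of 29 and 28 (wild type), 61 and 63 (KO1), 46 and 63 (KO2), a change of 0.99 ± 0.21 (adjusted p = 0.00217). Zcchc17, opposite the fatty acid binding protein gene Fabp3, had counts of 52 and 48 (wild type), 137 and 98 (KO1), 60 and 75 (KO2), with KO1 higher than KO2, and changed by 0.79 ± 0.17 (adjusted p = 0.00349). Gnal, the G protein alpha subunit of olfactory neurons, opposite Mppe1, changed by 0.61 ± 0.13 (adjusted p = 0.00318), with 73.8 ± 2.11, 106 ± 0.767 and 119.9 ± 15.7 CPM in the 3 groups.

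The largest rises stood on few counts. Rprd1b, which encodes a binding protein of the RNA polymerase II tail, lies opposite the transglutaminase gene Tgm2. Its counts were 2 and 5 (wild type), 12 and 25 (KO1), 16 and 16 (KO2), a change of 2.22 ± 0.50 (adjusted p = 0.00443, or 0.0769 without wild type replicate 1). RP23-396G1.3, a nested gene that also lies opposite Tgm2, rose by 1.86 ± 0.32 on the log2 scale. 4933431E20Rik, a lincRNA opposite Eps8l3, changed by 1.69 ± 0.38, with an adjusted p of 0.00417, or 0.134 without wild type replicate 1. Gpr89, opposite the scaffold gene Pdzk1, had counts of 6 and 1 (wild type), 8 and 14 (KO1), 9 and 23 (KO2), and the rise (1.85) was lost without wild type replicate 2, KO1 replicate 2 or KO2 replicate 2, with adjusted p of 0.435, 0.228 and 0.206. L3mbtl2 (1.27, a Polycomb-group gene opposite Chadl), Clk3 (0.67, opposite the decapping gene Edc3) and Srpk2 (0.83, opposite Mll5) also lost their calls. L3mbtl2 lost it without either wild type library, KO1 replicate 2 or KO2 replicate 2 (adjusted p of up to 0.301), Clk3 without either wild type library, KO1 replicate 2 or KO2 replicate 1 (up to 0.186), and Srpk2 without wild type replicate 2 or KO1 replicate 2 (up to 0.428).

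Of the 73 calls, 27 held in all 6 fits that left out 1 library, 9 higher and 18 lower. DESeq2 called 16 of the 73, and it gave an adjusted p to only 733 of the 895. With KO1 and KO2 libraries pooled as 1 group, so that the difference between the lines counts as spread, edgeR called 0 tail-to-tail genes, 73 had an unadjusted p under 0.05, and the smallest adjusted p was 0.103.

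**Figure D4:**
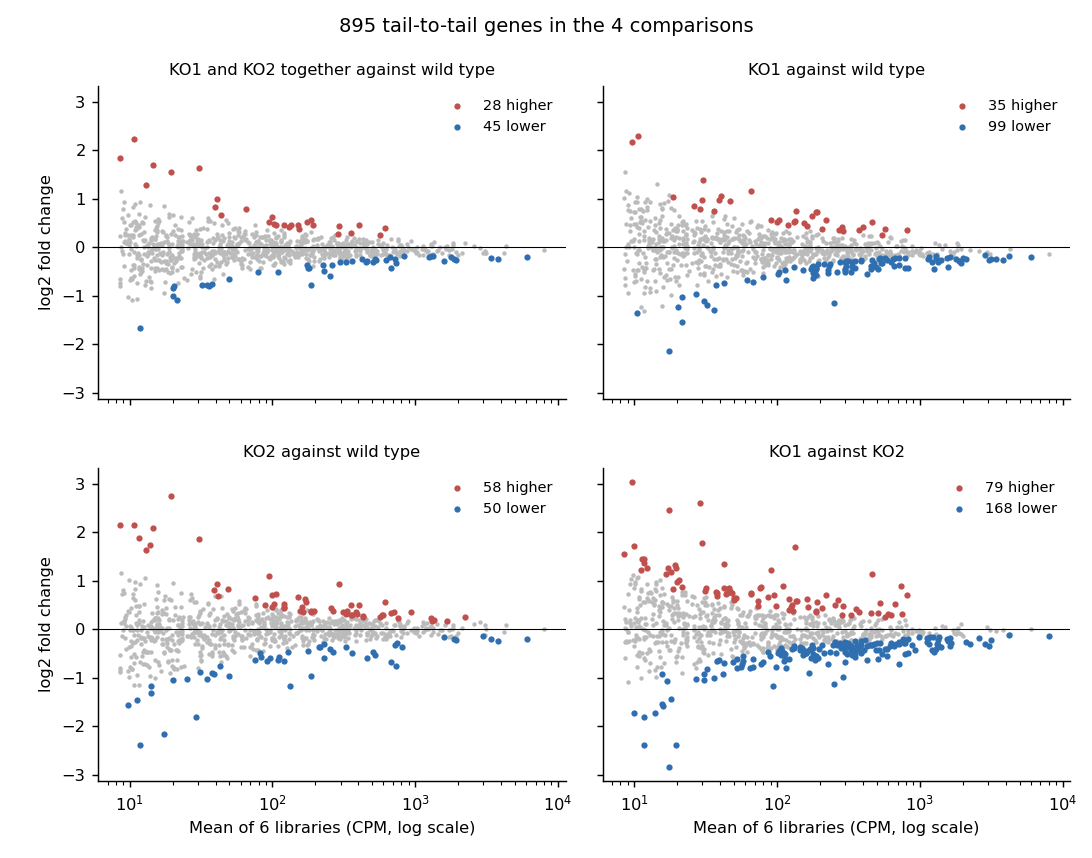
Log2 fold change against the mean of 6 libraries in CPM (log scale) for the 895 tail-to-tail genes in the 4 comparisons, with called genes in red (higher) and blue (lower) and the others in grey. Between KO1 and KO2, 79 were higher and 168 lower in KO1, more than in any comparison with wild type.

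In KO1 against wild type most called tail-to-tail genes were lower. The counts were 35 higher (3.46% of all tested genes were) and 99 lower (6.34% of all), with a median log2 fold change of -0.07 over the 895 and 0.01 over all. Tcp1, the chaperonin subunit gene opposite Acat3, had counts of 811 and 865 (wild type), 681 and 669 (KO1), 818 and 834 (KO2), a change of -0.38 ± 0.07 (adjusted p = 0.000217). KO1 lay below the overlapping wild type and KO2. 1700022I11Rik, opposite Vcp, changed by -0.26 ± 0.05 (adjusted p = 0.00028). Gm12868, opposite the glucose transporter gene Slc2a1, changed by -0.43 ± 0.07 (adjusted p = 8.25e-05), with 844 ± 81.6, 625 ± 16.6 and 888 ± 65.2 CPM in wild type, KO1 and KO2. Klc3, a kinesin light chain gene opposite the DNA repair helicase gene Ercc2, changed by -0.40 ± 0.08 (adjusted p = 0.000554).

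Large falls in KO1 were at Ceacam16 (an inner ear protein gene, opposite RP23-191I16.2), Gm17168 and Traf3ip3. Ceacam16 had counts of 18 and 25 (wild type), 5 and 5 (KO1), 34 and 36 (KO2), a change of -2.14 ± 0.43 (adjusted p = 0.000882). Gm17168 changed by -1.55 ± 0.30 and Traf3ip3 by -1.30 ± 0.25, and these 3 calls held without any 1 library. Gm16973, opposite Mphosph8, a reader of methylated H3K9, was named after its values were seen, as the gene with the smallest adjusted p in KO1. Its counts were 362 and 359 (wild type), 161 and 180 (KO1), 341 and 374 (KO2), a change of -1.15 ± 0.10 (adjusted p = 2.1e-09), and KO2 lay at the wild type level. Of the rises, Zcchc17 (1.16 ± 0.19, adjusted p = 5.89e-05) and Angptl6 (1.05 ± 0.23, adjusted p = 0.00214) held without any 1 library. D430040D24Rik, a lincRNA opposite Fam178b, had counts of 3 and 8 (wild type), 32 and 21 (KO1), 4 and 2 (KO2), and its rise (2.18 ± 0.46) had an adjusted p of 0.00141, or 0.0894 without KO1 replicate 1. Fam151a (1.39) and Rprd1b (2.30) had adjusted p of 0.0768 and 0.194 without KO1 replicate 2, Rprd1b had 0.0568 without wild type replicate 1, and 1500017E21Rik, opposite Hectd2 (-1.35), had one of up to 0.222, not below the threshold without any 1 library of KO1 or wild type. The 134 calls became 70 without KO1 replicate 1, 81 without KO1 replicate 2 and 43 with DESeq2.

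In KO2 against wild type, 58 tail-to-tail genes were higher (5.01% of all tested genes were) and 50 were lower (3.97% of all), with a median log2 fold change of 0.01 over the 895 and -0.01 over all. This balance depends on scaling: with factors from the genes of the 17 chromosomes and without AY036118 it was 85 higher and 43 lower, or 66.4% higher in place of 53.7%. Among the genes that rose, Gtf2ird2, opposite Ncf1, a subunit of the phagocyte NADPH oxidase, had counts of 8 and 7 (wild type), 4 and 7 (KO1), 29 and 27 (KO2), a change of 1.87 ± 0.39 (adjusted p = 0.00159). 4933431E20Rik (2.08 ± 0.40) and Fam151a (1.85 ± 0.29, adjusted p = 3.03e-05) rose as well. Pdxdc1, opposite Ntan1, an amidase gene of the N-end rule pathway, had counts of 374 and 339 (wild type), 403 and 384 (KO1), 474 and 544 (KO2) and changed by 0.50 ± 0.09 (adjusted p = 0.000113).

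The largest falls in KO2 were at Clca6 (-2.39 ± 0.44, adjusted p = 0.000377), Mterfd2 and Phyhipl. Mterfd2, a mitochondrial transcription factor family gene opposite the matrix protein gene Sned1, had counts of 23 and 27 (wild type), 32 and 32 (KO1), 5 and 6 (KO2), a change of -2.17 ± 0.40 (adjusted p = 0.000397). Phyhipl, opposite Fam13c, had counts of 32 and 35 (wild type), 69 and 53 (KO1), 12 and 7 (KO2), a change of -1.81 ± 0.35 (adjusted p = 0.000663). KO2 was lowest at both, and all of these calls held without any 1 library. Chpf2 changed by -0.96 ± 0.12 (adjusted p = 9.31e-07) and Smarcd3, counted on the other strand of the same overlap, by -0.65 ± 0.14 (adjusted p = 0.00208), a call that was lost without wild type replicate 1. BC106179 (-1.57) and 1700066J24Rik (-1.47) lost their calls without KO2 replicate 2 or wild type replicate 1, and the latter also without wild type replicate 2, with adjusted p of up to 0.303 and 0.297. Rprd1b (2.15) had an adjusted p of 0.109 without wild type replicate 1, and Gpr89 (2.14) had 0.407 without KO2 replicate 2 and 0.219 without wild type replicate 2. DESeq2 called 29 in place of 108.

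KO1 and KO2 differed from each other at more tail-to-tail genes than either differed from wild type. KO1 was higher than KO2 at 79 (7.93% of all tested genes were) and lower at 168 (11.4% of all). The median log2 difference was -0.06 over the 895 and 0.02 over all. This balance also depends on scaling. With factors from the 17 chromosomes without AY036118 it was 70 higher and 215 lower, or 24.6% higher in place of 32.0%. Among all tested genes, 399 higher and 572 lower became 343 and 689. D430040D24Rik (3.03 ± 0.52, adjusted p = 6.26e-05), Phyhipl (2.61 ± 0.31, adjusted p = 1.76e-07) and Mterfd2 (2.46 ± 0.38, adjusted p = 1.53e-05) were the most raised in KO1, and the libraries of the lines did not overlap. Gm10345, opposite Oplah, a gene of the glutathione cycle, had counts of 27 and 32 (wild type), 65 and 57 (KO1), 14 and 20 (KO2), a difference of 1.78 ± 0.26. Wild type lay between the lines. Hcn3, a pacemaker channel gene opposite the pyruvate kinase gene Pklr, differed by 1.71 ± 0.46 (adjusted p = 0.0083, or 0.0515 without KO1 replicate 2 and 0.0801 without KO2 replicate 2).

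Ceacam16 (-2.83 ± 0.38, adjusted p = 1.87e-06) and Gtf2ird2 (-2.38 ± 0.42, adjusted p = 8.9e-05) were far lower in KO1 than in KO2. Gm16277, opposite the neurotrophic factor receptor gene Gfra1, had counts of 16 and 13 (wild type), 5 and 7 (KO1), 18 and 23 (KO2), a difference of -1.81 ± 0.43, with an adjusted p of 0.00315, or 0.0548 without KO1 replicate 1. Hif1a, the hypoxia factor gene, opposite the lincRNA Gm15283, had counts of 9 and 10 (wild type), 5 and 7 (KO1), 16 and 23 (KO2), a difference of -1.73 ± 0.45, with an adjusted p of 0.0055, or 0.0797 without KO1 replicate 1 and 0.0758 without KO2 replicate 2. The 247 calls became 148 without KO1 replicate 1 and, with DESeq2, 104, of which 22 were higher and 82 lower.

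At Notch1, the receptor gene, tail-to-tail genes on the other strand differed between the lines. The lincRNA 0610009E02Rik, which shares 1068 bases of exon with Notch1, had counts of 106 and 98 (wild type), 170 and 147 (KO1), 57 and 74 (KO2). KO1 was highest, KO2 lowest and wild type between, without overlap, and KO1 against KO2 gave 1.22 ± 0.16 (adjusted p = 7.9e-07). Gm13568, which shares 414 bases with Notch1, had counts of 26 and 22 (wild type), 35 and 34 (KO1), 19 and 17 (KO2), a difference of 0.88 ± 0.29, with an adjusted p of 0.0319, or between 0.0695 and 0.215 without any 1 library of the lines. Notch1 itself held 56 counts.

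Genes that faced the same partner were set beside each other. Of the 895, 87 shared a partner with another counted gene of any arrangement, in 91 gene pairs at 86 partners. Opposite Pcbp2, Map3k12 changed by -0.20 ± 0.04 and the head-to-head gene Gm17403 by -0.18 ± 0.04 in the lines together. Opposite Ptbp1, BC005764 changed by -0.23 ± 0.04 and the nested gene Gm17134 by -0.19 ± 0.04. Opposite the ubiquitin-conjugating enzyme gene Ube2l3, Ydjc changed by -0.28 ± 0.06 and Gm15648 by -0.32 ± 0.06 in KO1 against wild type, the former with an adjusted p of 0.0622 without KO1 replicate 2. In each of these 3 cases the changes differed by less than their errors combined, as they did opposite Kctd10, where Myo1h was at -0.07 ± 0.08 and the tail-to-tail gene Gm13789 at -0.10 ± 0.10 in the lines together, neither of them called. Opposite the DNA repair helicase gene Ercc2, Klc3 differed by -0.42 ± 0.08 between KO1 and KO2 and the nested gene Gm17574 was at -0.18 ± 0.07. Opposite the splicing protein gene Snrpf, Ccdc38 was at -0.08 ± 0.07 there and the head-to-head gene 4933408J17Rik at -0.36 ± 0.11. In both of those pairs the differences were further apart than their errors combined, and 1 gene of each pair was called. In the lines together Klc3 was at -0.19 ± 0.07 and Gm17574 at -0.18 ± 0.06. There Ccdc38 was at -0.18 ± 0.06 and 4933408J17Rik at -0.14 ± 0.09, and none of these genes was called. How near the genes of a pair lay thus depended on the comparison, and the comparison shown was not the same for every pair.

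Both genes of such a pair were called in 5 cases in the lines together, 6 in KO1 and 7 in KO2, each time in the same direction, and in 8 between KO1 and KO2, of which 7 were in the same direction. Where 1 gene of the pair was called, the other had the same sign in 7 of 8, 8 of 11, 7 of 9 and 15 of 20 cases. Of all calls among the 895, 38.4%, 26.1%, 53.7% and 32.0% were higher in these comparisons. The agreement in direction was not tested against that balance. The exception among pairs with both called was at Ccdc101, where Sult1a1 differed by 1.17 ± 0.31, a call lost without KO2 replicate 1, and 2510046G10Rik by -0.37 ± 0.12. Opposite Pdss1, Abi1 was at -0.75 ± 0.19 in the lines together while A130006I12Rik was at -0.03 ± 0.16, and opposite Rcbtb2, Rb1 was at -0.12 ± 0.27 in KO1 while Gm17233 was at 1.28 ± 0.30. The genes at Ccdc101, Pdss1 and Rcbtb2 and the next examples were chosen after their values were seen. At Aldh5a1, which encodes a dehydrogenase of GABA breakdown, 4932702P03Rik changed by 1.10 ± 0.15 and 9330162012Rik by 1.07 ± 0.22 in KO2. At the mitochondrial phosphatase gene Ptpmt1, Kbtbd4 differed by -0.90 ± 0.11 and Gm17661 by -0.74 ± 0.13 between KO1 and KO2.

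In the 279 facing pairs, both genes were called in 1 in the lines together, 6 in KO1 (5 in the same direction) and 4 in KO2 (3 in the same direction). Between KO1 and KO2 it was 26 (15 in the same direction and 11 opposite). Of all 895, 8.16%, 15.0%, 12.1% and 27.6% were called in these comparisons, and the counts of pairs were not tested against those shares. The 1 pair called in the lines together was Jmjd8, with a change of -0.24 ± 0.04, and the ubiquitin ligase gene Stub1, with -0.43 ± 0.10, whose call was lost without wild type replicate 1. Also chosen after their values were seen, the cell cycle kinase gene Cdk4 and the tetraspanin gene Tspan31 went apart between KO1 and KO2, with -0.37 ± 0.07 and 0.85 ± 0.17. Pigh, a gene of GPI anchor synthesis, and Plekhh1 also went apart, with 0.55 ± 0.10 and -0.59 ± 0.11. Against wild type in KO1, where Tcp1 fell, Acat3 was at -0.03 ± 0.05 (adjusted p = 0.727).

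**Figure D5:**
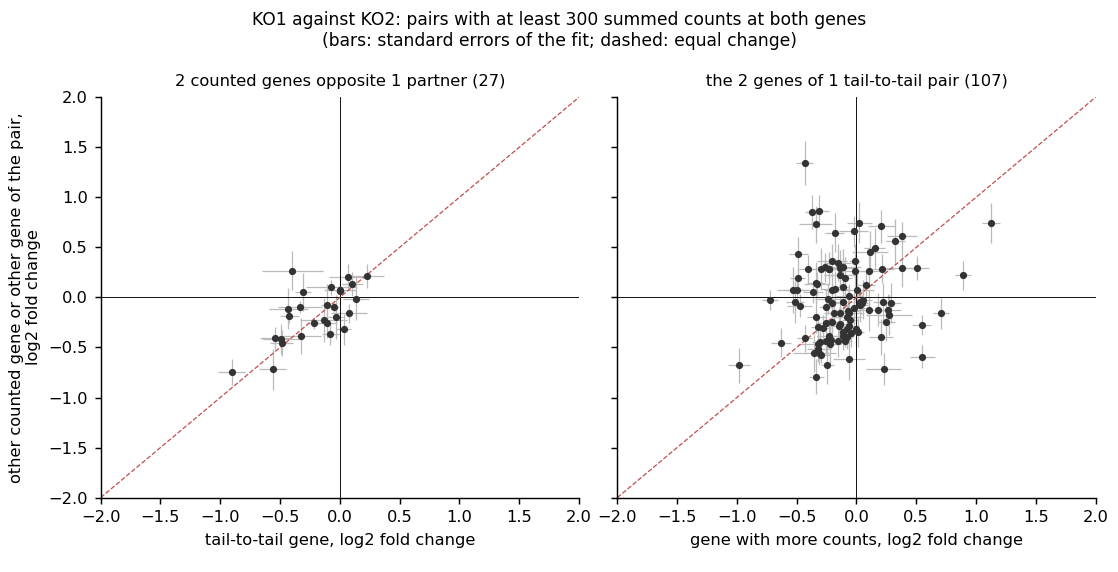
Log2 fold change between KO1 and KO2 of a tail-to-tail gene against that of another counted gene with the same partner (left, 27 pairs) and of the genes of a tail-to-tail pair against each other (right, 107 pairs), all with at least 300 summed counts at both, with bars for standard errors and a dashed line of equal change. Points follow the line on the left (Pearson correlation 0.666) and scatter on the right (0.149).

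Over all 91 pairs that share a partner, the Pearson correlation of log2 fold changes was 0.657 in the lines together, 0.565 in KO1, 0.659 in KO2 and 0.486 between KO1 and KO2, and Spearman's rho was 0.445, 0.390, 0.517 and 0.440. Over all 279 facing pairs Pearson's correlation was 0.0566, 0.102, 0.0513 and 0.111. The median difference between the log2 fold changes of a pair that shares a partner was 0.164, 0.260, 0.198 and 0.254. With at least 300 summed counts at both genes, the Pearson correlation of log2 fold changes was 0.570 in the lines together, 0.371 in KO1, 0.715 in KO2 and 0.666 between KO1 and KO2 over 27 pairs that share a partner. Over 107 facing pairs it was -0.170, -0.181, 0.0978 and 0.149. At that depth the median difference was 0.104, 0.126, 0.116 and 0.1485 over the 27 pairs against 0.188, 0.260, 0.228 and 0.285 over the 107. All points come from the same 6 libraries, and both sets hold different genes at different depths, so these values are descriptions and the difference was not tested.

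By function, the lists were matched to the partner, since the counts were read as its strand, and to the counted gene. In the lines together 8.16% of the 895 were called, so lists of this size with 0 to 2 calls cannot be told from that share. Matched by partner, 3 lists held calls. Of 5 genes opposite ribosomal protein genes 1 fell (Tbc1d8), of 5 opposite splicing and RNA-binding genes 1 fell (BC005764), and of 9 opposite chromatin regulators 1 rose (Srpk2) and 1 fell (Gm16682). None of 13 opposite cell cycle and replication genes, 6 opposite proteasome and chaperone genes and 6 opposite signalling genes was called. Nor was any of 5 opposite genes of oxidative phosphorylation or 5 opposite genes of cleavage, polyadenylation and termination. The same held for 3 each opposite translation and double-stranded RNA genes and 2 opposite glycolytic and central metabolic genes. Across the lists matched by partner, median log2 fold changes ran from -0.17 for ribosomal proteins to 0.04 for chromatin regulators, against -0.04 for all 895.

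Between KO1 and KO2, 4 of 13 genes opposite cell cycle genes were called, close to the 27.6% of all 895. Of these, 2 were higher in KO1 (Bysl, opposite the cyclin gene Ccnd3, and Tspan31, opposite Cdk4) and 2 were lower (Oraov1, opposite the cyclin gene Ccnd1, and Gm12743, opposite the origin recognition gene Orc1, a call lost without either KO1 library or KO2 replicate 2). Bysl had counts of 859 and 985 (wild type), 1230 and 1229 (KO1), 692 and 754 (KO2), a difference of 0.71 ± 0.07 (adjusted p = 1.22e-09), with wild type between the lines. Oraov1 differed by -0.30 ± 0.06. Fam69a, opposite the ribosomal protein gene Rpl5, was lower in KO1 than in KO2 (-0.54 ± 0.08, adjusted p = 1.7e-05), and so was Gm12868 opposite Slc2a1 (-0.50 ± 0.07).

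Matched by the counted gene, the lists hold genes whose counts were read as RNA of the partner. The values below are therefore not read as levels of the listed genes' own RNA. In the lines together counts were higher at 1 of 6 genes of cleavage, polyadenylation and termination (Rprd1b) and 1 of 10 chromatin regulators (L3mbtl2). They were lower at 1 of 11 cell cycle and replication genes (Rfc5) and 1 of 5 proteasome and chaperone genes (Tcp1). Without either wild type library, KO1 replicate 1 or KO2 replicate 2, Tcp1 lost its call. Called genes were absent in the lines together among 5 ribosomal protein genes, 4 signalling genes and 3 each of translation and of splicing. The same held for 2 each of double-stranded RNA handling and of central metabolism, and 1 of oxidative phosphorylation. In KO2, Eif5b, a translation initiation factor gene opposite Rev1, changed by -0.37 ± 0.09 (adjusted p = 0.00427, or 0.0619 without KO2 replicate 1). Ddx39, an RNA helicase gene opposite Cd97, was at -0.40 ± 0.10 there (adjusted p = 0.0118, or 0.331 without wild type replicate 2 and 0.0664 without KO2 replicate 1). Dgcr8, a microRNA processing gene opposite Trmt2a, was higher in KO1 than in KO2 (1.44 ± 0.43, adjusted p = 0.0155, or up to 0.111 without KO1 replicate 1 or either KO2 library).

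Genes in other arrangements were called too. Among genes with at least 600 summed counts, the share called in the lines together was 11.9% of 436 tail-to-tail genes, 13.9% of 158 head-to-head genes, 18.1% of 221 nested genes and 6.02% of 83 genes with no partner. In the same order the shares were 24.8%, 22.8%, 25.8% and 10.8% in KO1, and 17.7%, 15.8%, 17.6% and 13.3% in KO2. Between KO1 and KO2 they were 39.9%, 31.0%, 39.8% and 30.1%. The differences between arrangements were not tested.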

How the data were processed

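RNA-seq count tables of 6 libraries (J1 ES cells, wild type, KO1 and KO2, 2 each) were used. Per the file headers, the authors counted read pairs per gene over exons with featureCounts 2.0.1, with strand setting 1, GENCODE mouse version 1 and mm9, and deposited raw counts. The submitters' processing notes list STAR 2.5.4b, featureCounts 2.0.0 and Trim Galore 0.6.4 among other tools, with no roles. No source used here says if the kit marks strand, and for overlapping genes the reading of the strand rests on the counts themselves.

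Members were found from the tables' exon coordinates. Chromosomes 6 and 11 and the sex chromosomes lie outside the rule. The members and gene lists were chosen with earlier results of these data known. edgeR 4.0.16 in R 4.3.3 was fitted to all 6 libraries (filterByExpr with a minimum count of 10, TMM scaling, robust quasi-likelihood fit of 3 group means, 3 residual degrees of freedom), leaving 5034 genes. Calls had a Benjamini-Hochberg adjusted p under 0.05 over all of them. CPM are scaled to the effective library size. The script was tested on simulated data. Alternatives were DESeq2 1.42.0, its size factors in edgeR, no filter, a replicate block, a test against a log2 change of 0.5, no AY036118, each library left out, stricter thresholds for members, a single knockout group and, added after seeing the data, scaling on the 17 chromosomes. Sequences were read from the mm9 genome.

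The naming rule took the 12 genes with the highest summed count. To these it added, for each direction, the 10 largest changes in the lines together and the 5 largest in each other comparison, among called genes whose highest group reached 5 CPM and with no overlap of the libraries compared. It also took the 6 pairs and the 6 genes with a shared partner with the highest smaller count, up to 3 called members of each list, and the genes nearest the thresholds. A few genes that the rule took are not reported here. Others were chosen after their values were seen: Gm16973, Bysl, Oraov1, RP23-396G1.3, Smarcd3, Jmjd8, Stub1, Cdk4, Pigh, Plekhh1, Kbtbd4, 4932702P03Rik, Gm12743 and the genes with a shared partner beyond the first 6. Libraries of a group differed by more than sampling noise, with a chi-square per degree of freedom of 1.50, 2.15 and 1.91 in wild type, KO1 and KO2.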

Additional observations from a re-analysis of the deposited data

Results flagged for a closer look

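At 17 of the tail-to-tail genes reported here KO1 and KO2 differed from each other in a direct test (edgeR's quasi-likelihood test, adjusted over all tested genes) and either were named for the size of the difference or were called on opposite sides of wild type. Values are log2 differences, KO1 against KO2. KO1 was lower at Ceacam16 (-2.83), Gtf2ird2 (-2.38), Gm16277 (-1.81) and Hif1a (-1.73), and at Dnajc14, opposite Ormdl2, a regulator of sphingolipid synthesis (-0.72), Cebpz (-0.57), 1600012H06Rik, opposite Phf10, a subunit of a SWI/SNF complex (-0.55), and Sla2 (-0.42). KO1 was higher at Bysl (0.71), C030034L19Rik, opposite the zinc finger gene Zfp704 (1.12), 0610009E02Rik, opposite Notch1 (1.22), Gm15415, opposite the teneurin gene Odz4 (1.70), Hcn3 (1.71), Gm10345 (1.78), Mterfd2 (2.46), Phyhipl (2.61) and D430040D24Rik (3.03). Of the 25 tail-to-tail genes called against wild type in both lines, 7 were higher in both, 9 were lower in both and 9 were on opposite sides. The direct calls of the 9 genes with calls on opposite sides held without any 1 library. Their calls against wild type held throughout only at Bysl, Dnajc14 and C030034L19Rik. Those of Cebpz held in 2 of 6 (KO1) and 3 of 6 (KO2) fits without 1 library, those of 0610009E02Rik in 4 of 6 in either line, and 1600012H06Rik, Gm15415, Phyhipl and Sla2 lost at least 1 of theirs in such a fit. What sets these lines apart was not tested.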

How the results depend on the processing

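Of the 320 results for 80 named genes none that was called reversed under any setting run, while counts of calls moved. In the order lines together, KO1, KO2 and KO1 against KO2, the 73, 134, 108 and 247 calls became 16, 43, 29 and 104 with DESeq2 and 1, 7, 13 and 24 in a test against a log2 change of 0.5. Calls among all genes fell as well, from 333, 493, 452 and 971 to 92, 159, 135 and 352 with DESeq2. Against a log2 change of 0.5 they were 16, 74, 59 and 197. DESeq2 gave an adjusted p to 733, 853, 681 and 779 of the 895, and genes without one could not be called. The lines as a single group gave 0, and 6 among all genes. The cause of the difference between the tools was not tested. Leaving out 1 library gave 52 to 78, 70 to 160, 72 to 100 and 148 to 274 calls, with the lowest for KO1 and for KO1 against KO2 without KO1 replicate 1. With the replicate number as a block the counts were 69, 132, 96 and 240, and the libraries share only a number (the differences between replicates 2 and 1 correlated at 0.0314, 0.00894 and -0.00376 between pairs of groups). Scaling on the 17 chromosomes gave a median of 0.0565 in place of 0.0067 in KO2 and -0.1104 in place of -0.0597 between KO1 and KO2. The share of counts at tail-to-tail genes was 23.2% as a mean and 35.6% without AY036118. Between KO1 and KO2, 21.2% of DESeq2's calls were higher, against 32.0%. Low counts limit genes near 60 counts, about 10 per library.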
